A study of Mus musculus with 4 samples.

Results

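The genes described here belong to the ATF4 stress response and to the amino acid supply that ATF4 serves. They were chosen by name, as the rows of the deposited gene count table whose symbol was one of 36 listed genes, out of 54532 genes in the table. The list was made with earlier results of these data known. The 36 symbols took 37 rows, because Ddit3 was entered under 2 gene identifiers. mRNA had been sequenced from C3H10T1/2 cells, a line of mouse mesenchymal stem cells able to become bone, cartilage, fat or muscle. All cells were grown in MEM with serum, non-essential amino acids, glutamine and pyruvate, and all had received an siRNA for 48 h. The group called control received a control siRNA and was left untreated, and siDNMT1 received an siRNA that targets DNMT1, the enzyme that maintains DNA methylation, and was left untreated. The groups called OB and siDNMT1_OB received the same respective siRNAs, and were then kept for 3 days in osteoblast (OB) medium with ascorbic acid (50 µM), β-glycerophosphate (10 mM) and dexamethasone (0.001 µM). Each group held 1 library of this single cell line, so no difference below has a replicate check.

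ATF4 is a transcription factor whose own mRNA is translated when the initiation factor eIF2α is phosphorylated, as happens when amino acids run short, when unfolded proteins build up in the endoplasmic reticulum (ER), or when mitochondria are disturbed. It pairs with C/EBP proteins on a short composite DNA element and switches on genes for making, importing and charging amino acids, together with stress regulators such as CHOP, the product of Ddit3. In the osteoblast lineage ATF4 is known for its role in maturation and in the uptake of amino acids for matrix protein synthesis. Because ATF4 is controlled largely at translation, its mRNA level and the level of its protein need not move together, and only mRNA was measured here.

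The 4 libraries held between 22296046 (OB) and 27367792 (control) counts. Levels are given as CPM, counts relative to library size with TMM scaling between libraries, and the floor of 3 counts stood for 0.111 to 0.133 CPM. All intervals are 95% intervals that cover counting error only, not the spread between dishes of cells. Dnmt1 had 1931 counts in OB and 2492 in siDNMT1_OB, against 7195 in control and 3375 in siDNMT1. The log2 fold change of Dnmt1 was −1.01 (−1.07 to −0.95) in siDNMT1 against control but 0.13 (0.04 to 0.21) in siDNMT1_OB against OB. The targeted mRNA was thus not lower there, so that library is called the library labelled siDNMT1_OB, and every direction taken from it is subject to this. Of 10 mesenchymal markers 9 passed the expression filter, a mean of at least 1 CPM over the 4 libraries, as did 4 of 8 osteoblast markers. Alpl, Sp7, Ibsp and Bglap were the osteoblast markers that did not. None of 11 markers of blood, endothelial, epithelial, muscle or glial cells passed, and their summed level lay between 0.187 and 0.479 CPM. Adgre1, Epcam, Myod1 and Sox10 had 0 counts in every library.

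Of the 36 genes, 34 passed the filter, beside 13233 genes in the whole table. Together the listed genes took 3665 CPM in OB and 4505 in the library labelled siDNMT1_OB, against 6251 in control and 6795 in siDNMT1. The 8 cytosolic tRNA synthetases were the role with the largest sum, at 2070 CPM in control and 1127 in OB. The amino acid synthesis enzymes summed to 1338 CPM in control and 660 in OB, and the amino acid transporters to 1191 and 988 CPM. Compared per length, as RPKM, which relates the counts to exonic length and library size, control had its highest levels in Psat1 (141 RPKM), Atf5 (129), Nars (124) and Atf4 (119). The lowest of the 34 in control were Slc1a5 (3.88 RPKM), Cth (5.5) and Vldlr (7.13). In OB the highest level was that of Nars, at 72.2 RPKM, and the lowest that of Cth, at 1.77 RPKM.

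**Figure D1:**
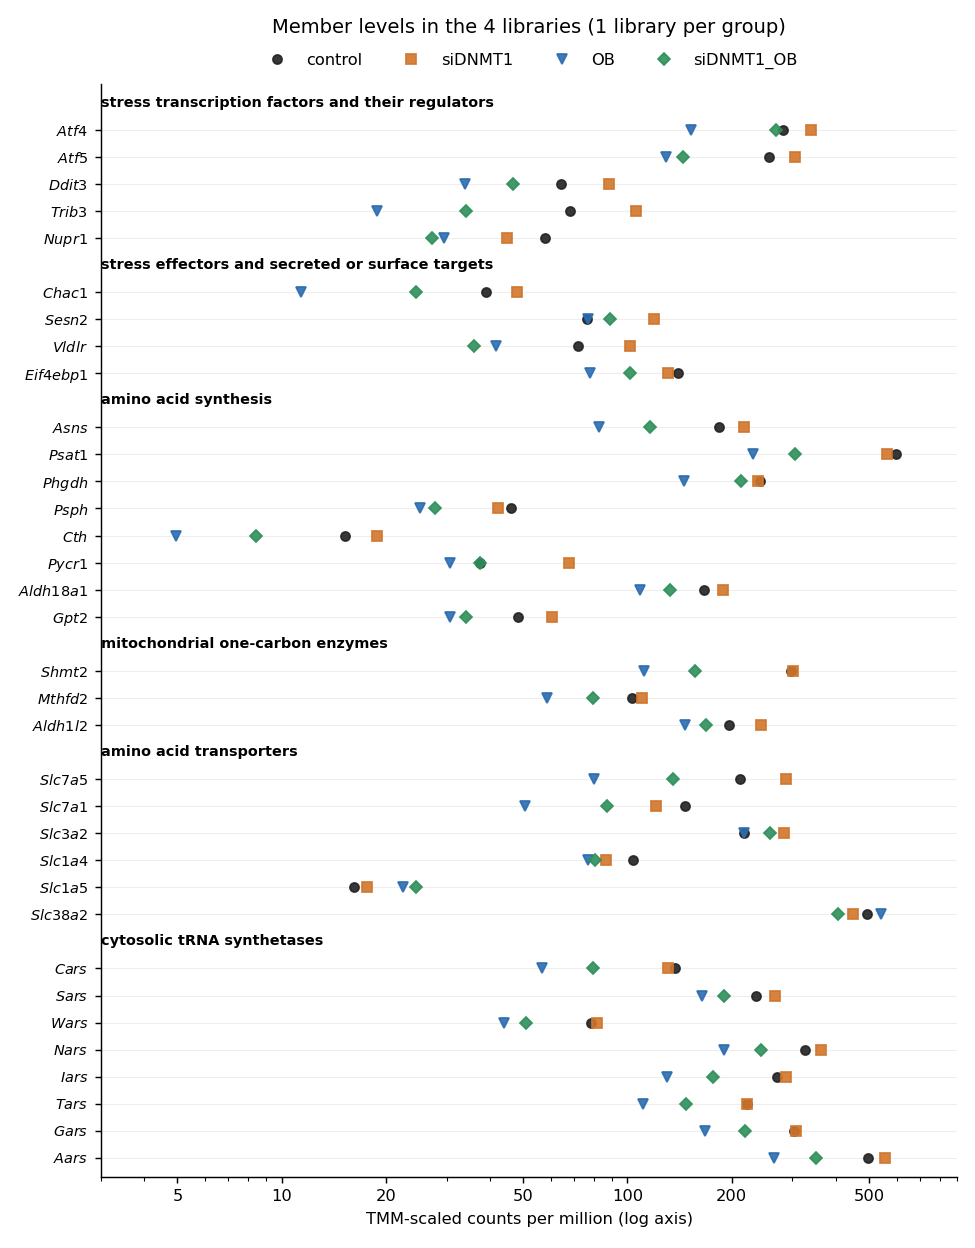
Level of each of the 34 genes that passed the filter in the 4 libraries, as TMM-scaled CPM on a log axis, grouped by role; each symbol is 1 library. The OB symbol is the leftmost in 29 of the 34 genes, and the siDNMT1 symbol the rightmost in 23.

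The element bound by ATF4 with a C/EBP partner, known as CARE, was looked for before the start sites of the genes. The genes were listed by name for their part in the ATF4 response. Their share of matches is thus a description and no independent check of that choice. TGATGNAA was searched on both strands in the 250 bases before each start site, in the promoter table of RefSeq (build GRCm38.p6), which held 28 of the 36 genes. It was present in 8 of the 28 (28.6%), against 1056 of all 27025 genes in that table (3.91%), 2.34% of the 9590 that also passed the filter and 3.05% of the 655 that were at least 2-fold lower in OB than in control. With the variable base fixed to C the shares were 6 of 28 (21.4%) and 0.918% of all genes. Eif4ebp1, Cth, Aldh1l2, Slc7a5, Slc1a5, Cars, Wars and Nars were not in the table. Of the matches 7 are printed below 5′ to 3′ on the strand of the gene with up to 11 bases on each side. They are shown so that the matched letters can be seen in their place before the RefSeq start sites of genes of different roles. The windows of Nupr1, Vldlr and Asns lie inside the span that the count table gives the gene, and that of Tars overlaps it in part. Capitals mark the element, whose letters the search fixed except for N, read as its reverse complement in Nupr1, Chac1, Vldlr, Tars and Gars.
Nupr1, chr7:126625562-126625591, minus strand: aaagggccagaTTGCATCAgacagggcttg
Chac1, chr2:119351038-119351067, plus strand: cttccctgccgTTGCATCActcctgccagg
Vldlr, chr19:27216809-27216838, plus strand: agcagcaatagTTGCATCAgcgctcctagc
Asns, chr6:7693214-7693243, minus strand: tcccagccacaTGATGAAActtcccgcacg
Pycr1, chr11:120643833-120643862, minus strand: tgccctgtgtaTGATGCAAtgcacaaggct
Tars, chr15:11399659-11399684, minus strand: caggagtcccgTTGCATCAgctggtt
Gars, chr6:55037960-55037989, plus strand: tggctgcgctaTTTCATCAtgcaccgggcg
The element began 15 bases before the start site in Tars, 23 in Asns and 30 in Gars, and between 103 and 200 bases before it in the other 4 of these. A match is a run of letters and not a measured binding site, and the absence of one says only that the letters are not in this window.

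To see how these genes differed with OB induction, OB was compared with control, and the library labelled siDNMT1_OB with siDNMT1. The untreated cells were sampled before the 3 days of induction, and no library held untreated cells kept for that time. In every induction comparison the OB medium and the added time in culture therefore cannot be told apart. The log2 fold change was negative in 31 of the 34 genes with control siRNA (91.2%, against 49.3% of all genes tested) and in 33 with DNMT1 siRNA (97.1%, against 49.9%), and Trib3 was the furthest down in both comparisons, at 27.8% and 32.3% of its uninduced level. Genes count here as higher or lower from a log2 fold change of 1 in size upwards, that is 2-fold. By this rule 11 of the 34 genes (32.4%) were lower in OB than in control, against 7.1% of all genes tested, and none was higher, against 10.6%. These 11 were Trib3, Chac1, Asns, Psat1, Cth, Shmt2, Slc7a5, Slc7a1, Cars, Iars and Tars. At 1.5-fold the number that was lower was 26 (76.5%), against 15.3% of all genes. The median log2 fold change of the 34 was −0.86, beside 0.01 over all genes tested.

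With DNMT1 siRNA, 5 of the 34 genes (14.7%) were lower after induction (the library labelled siDNMT1_OB against siDNMT1), beside 2.71% of all genes tested. They were Atf5, Trib3, Vldlr, Cth and Slc7a5. None was higher, against 6.83%. At 1.5-fold 18 genes (52.9%) were lower, against 8.9% of all genes, and the median was −0.64, beside 0.00. These 2 comparisons share no library. Across the 34 genes their log2 fold changes had a Pearson's r of 0.72 and a Spearman's rho of 0.67, and across all genes tested 0.85 and 0.78. Genes are not independent replicates, and all values passed through the same scaling. The dot plot of differences with OB induction shows Vldlr and Pycr1 further down with DNMT1 siRNA, and Slc7a1 and Chac1 further down with control siRNA.

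**Figure D2:**
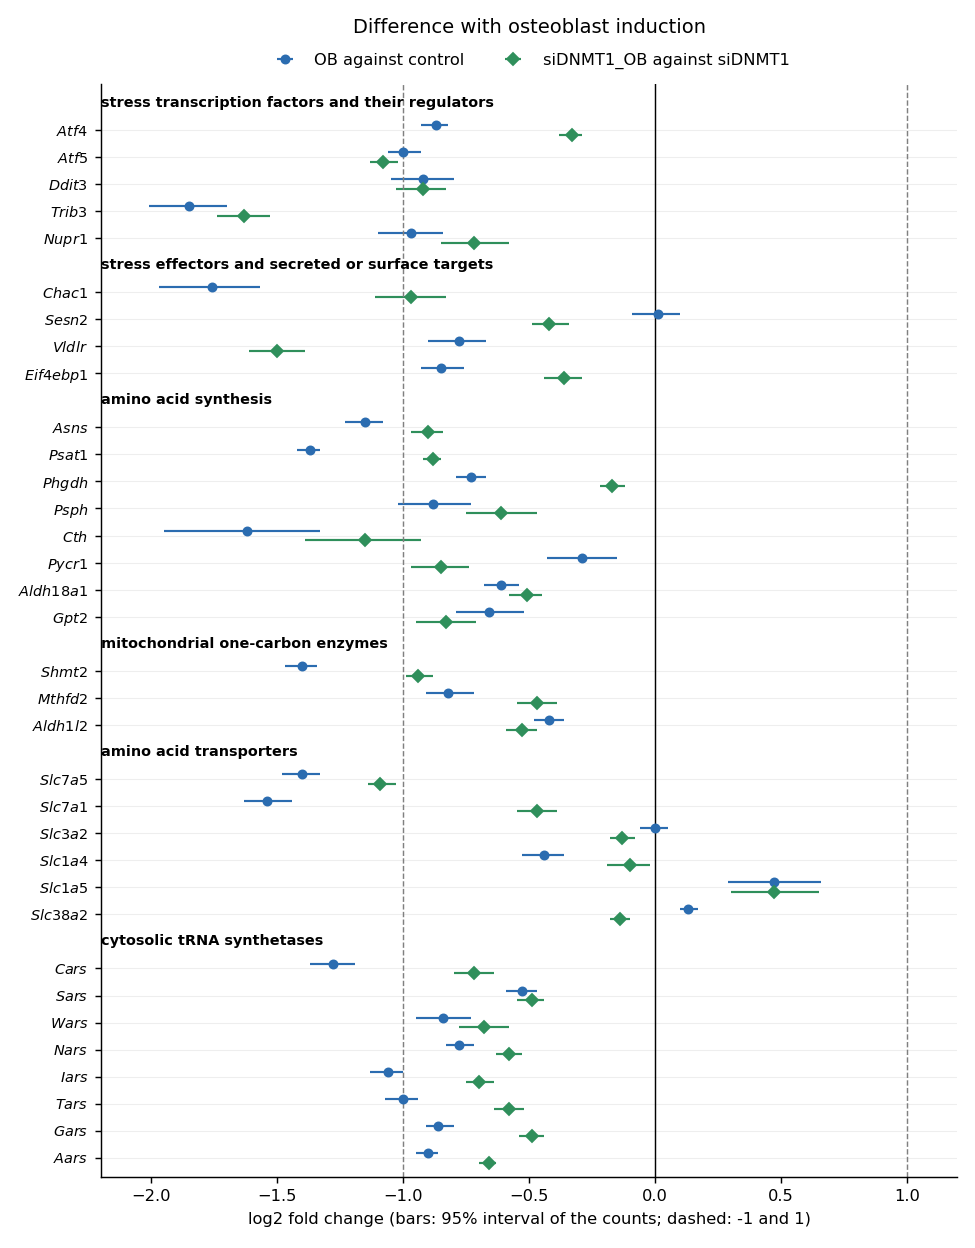
Log2 fold change with OB induction for the 34 genes, with control siRNA (circles, OB against control) and with DNMT1 siRNA (diamonds, the library labelled siDNMT1_OB against siDNMT1); bars are 95% intervals of the counts and dashed lines mark −1 and 1. Circles lie at or left of −1 for 11 genes and diamonds for 5, and Slc1a5 lies at 0.47 in both.

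Other gene groups moved in the same libraries. All 20 genes of a cell cycle list (such as Mki67, Top2a and the Mcm genes) were at least 2-fold lower in OB than in control, against 7.1% of all genes tested, with a median log2 fold change of −2.26 and a summed level of 801 CPM against 3719. In the library labelled siDNMT1_OB that sum was 1553 CPM, and in siDNMT1 3327 CPM. Of 9 glucocorticoid response genes, whose inducer dexamethasone is part of the OB medium, 7 were at least 2-fold higher in OB than in control (77.8%, against 10.6% of all genes), with a median of 2.15. Their summed level was 1578 CPM in OB and 1614 in the library labelled siDNMT1_OB, against 381 in control and 317 in siDNMT1. Of the 9 mesenchymal markers Pdgfra was at least 2-fold higher in OB than in control, at 2.47 (11.1%, against 10.6% of all genes). Of the 4 osteoblast markers Postn was higher, at 3.45 (25%, against 10.6%), and Spp1 lower, at −1.55 (25%, against 7.1%). In siDNMT1 against control Ly6a (−1.03) and Spp1 (−1.41) were at least 2-fold lower (11.1% and 25% of their lists, against 1.37% of all genes). Whether any of these groups had a part in the changes of the ATF4 and amino acid genes was not tested. In bulk RNA, fewer cells of a kind and less RNA per cell cannot be told apart.

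The effect of DNMT1 siRNA was compared in untreated cells (siDNMT1 against control, the uninduced pair) and in induced cells (the library labelled siDNMT1_OB against OB, the induced pair). In the uninduced pair no gene of the 34 was at least 2-fold higher or lower, where 1.97% of all genes tested were higher and 1.37% lower. Pycr1, Sesn2 and Trib3 were above 1.5-fold, which made 8.82% of the 34, against 6.37% of all genes. In the induced pair 1 gene (2.94%), Chac1, was at least 2-fold higher, against 2.36% of all genes, and none was lower, against 1.37%. Atf4, Trib3, Chac1, Cth, Slc7a5 and Slc7a1 were above 1.5-fold there (17.6%, against 6.73%).

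Smaller differences made up most of the shift in the induced pair. The log2 fold change was positive in 31 of the 34 genes (91.2%, against 52.2% of all genes tested), and its counting interval lay above 0 in 28 (82.4%, against 27.6% of all genes tested) and below 0 in 2 (5.88%, against 23.6%). In the uninduced pair it was positive in 24 genes (70.6%, against 49.7%), with the interval above 0 in 20 (58.8%, against 26% of all genes) and below 0 in 8 (23.5%, against 26.8%). A counting interval excludes 0 more easily at higher counts. All genes tested were not matched to the 34 by level, so the interval shares here and below are not compared at like depth. The medians were 0.39 in the induced pair and 0.16 in the uninduced pair, beside 0.01 and −0.00 over all genes. Both pairs were positive in 23 genes (67.6%), against 27.6% of all genes tested. Across the 34 genes the 2 pairs, which share no library, had a Pearson's r of 0.20 and a Spearman's rho of 0.15 (0.25 and 0.14 over all genes). For the cell cycle list the medians were −0.23 without and 0.99 with induction, where all 20 of its genes were positive, and its part in the shift of the 34 genes was not tested.

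**Figure D3:**
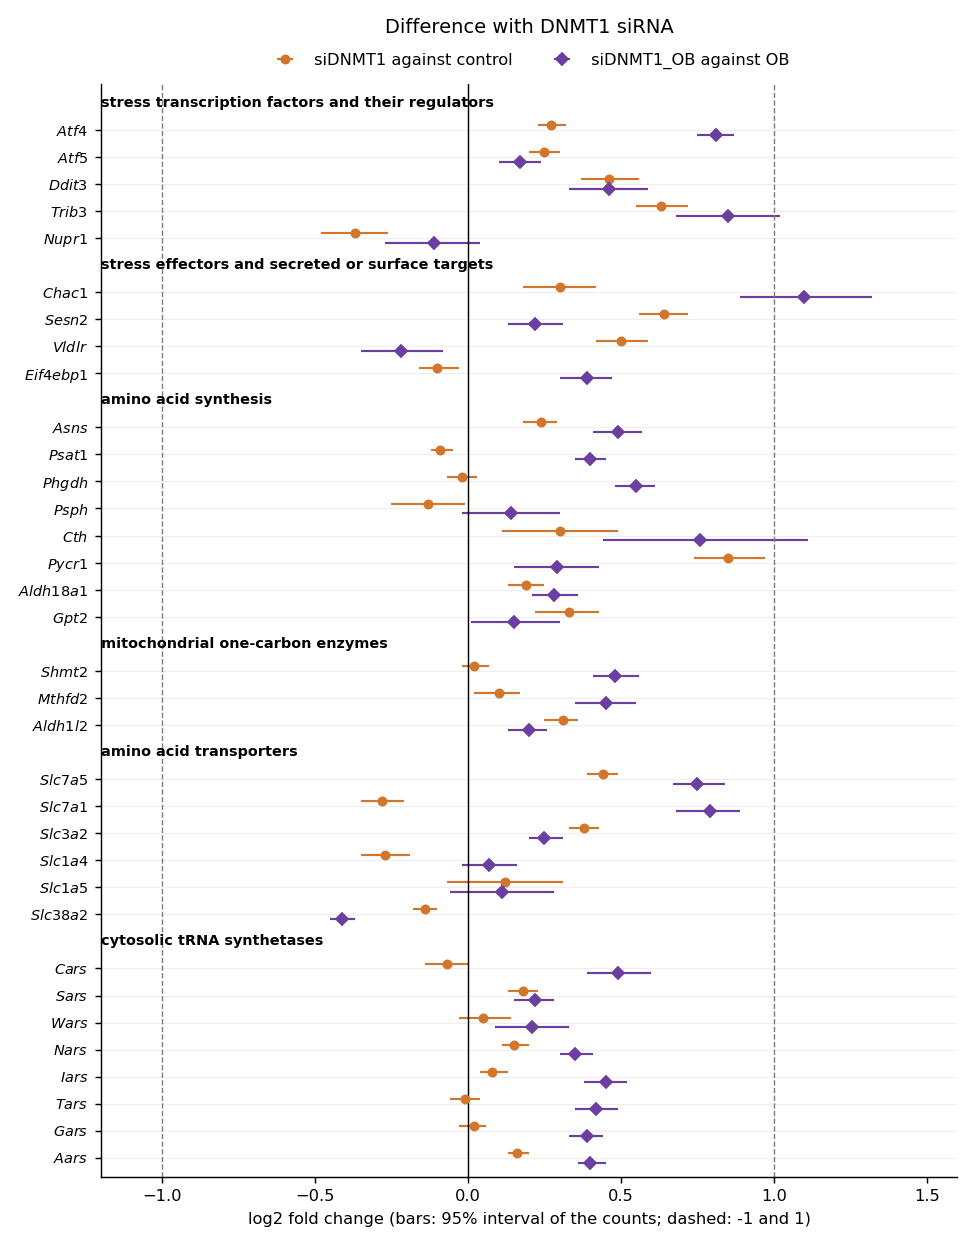
Log2 fold change with DNMT1 siRNA for the 34 genes in untreated cells (circles, siDNMT1 against control) and in induced cells (diamonds, the library labelled siDNMT1_OB against OB); bars are 95% intervals of the counts and dashed lines mark −1 and 1. Only Chac1 in induced cells, at 1.10, lies past a dashed line, and 31 of the 34 diamonds lie right of 0.

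The difference between the siDNMT1 effect of the induced pair and that of the uninduced pair uses each library once. It was 1 or more in 1 of the 34 genes (2.94%), Slc7a1, against 3.27% of all genes tested, and −1 or less in none, against 2.95%. At 1.5-fold it was higher in 2 genes (5.88%, against 8.89%) and lower in 1 (2.94%, against 8.59%). In 5 genes (14.7%, against 12.6% of all genes) the counting intervals of the 2 effects lay on opposite sides of 0, and in 1 gene (2.94%, against 3.85%) those of the 2 induction effects did. The median was 0.25, beside 0.00 over all genes. The counting interval lay above 0 in 23 genes (67.6%, against 27.1%, again not matched by level). OB held the lowest level of the 4 libraries in 29 of the 34 genes (85.3%), against 32.2% of all genes tested, the others being Nupr1, Sesn2, Vldlr, Slc1a5 and Slc38a2. In 28 of these the library labelled siDNMT1_OB held the next lowest level (82.4%, against 24.5%). The highest level was in siDNMT1 in 23 genes (67.6%, against 20.6%) and in control in 9 (26.5%, against 30.1%).

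**Figure D4:**
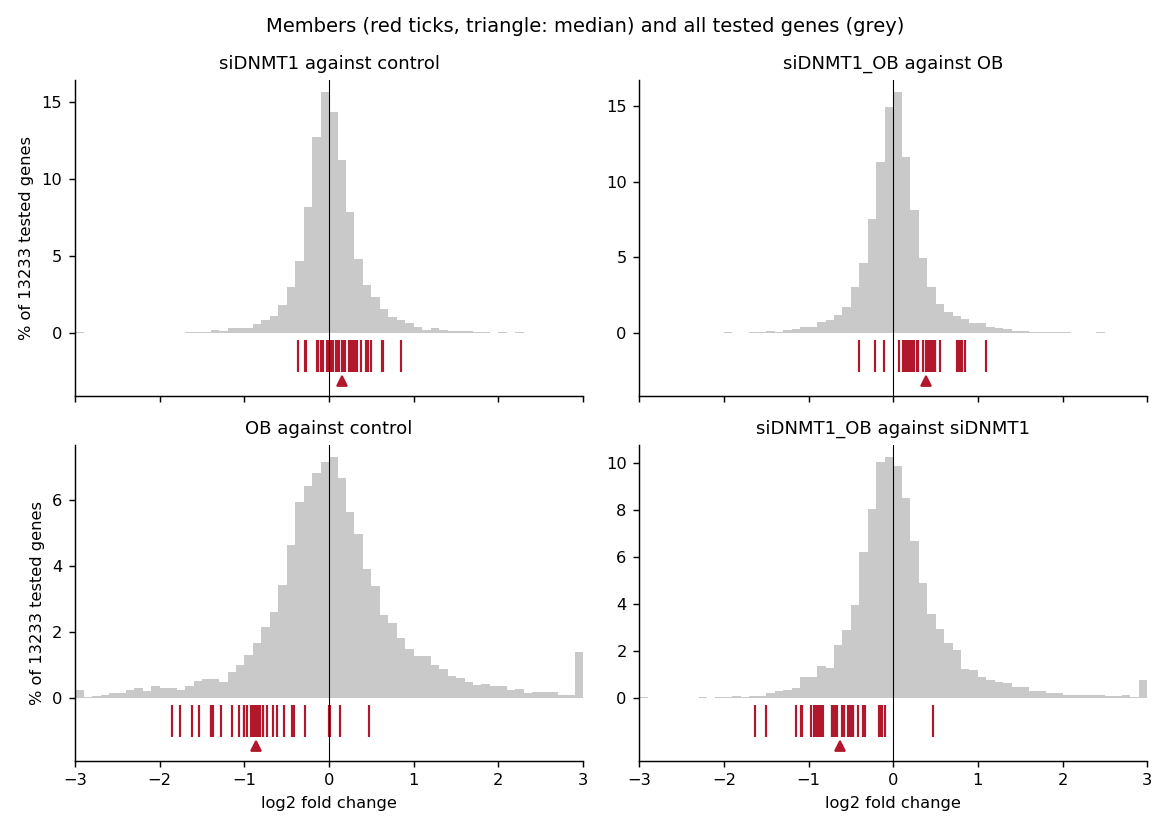
Distribution of the log2 fold change over the 13233 tested genes (grey bars, bins of the share of genes in percent, with the outermost bins holding all values beyond them) in the 4 comparisons; red ticks are the 34 genes and the triangle their median. The triangle lies at −0.86 in OB against control and at −0.64 in the library labelled siDNMT1_OB against siDNMT1, and at 0.16 and 0.39 in the DNMT1 siRNA comparisons.

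All 5 stress transcription factors and regulators were lower in OB than in control by over 1.5-fold, against 15.3% of all genes tested, with log2 fold changes between −0.87 and −1.85. Atf4 (ENSMUSG00000042406, chromosome 15, 80255184 to 80257541 on GRCm38, plus strand) was counted 3464 times in OB, 7194 in the library labelled siDNMT1_OB, 7616 in control and 8681 in siDNMT1. OB stood apart at 153 CPM, while the other libraries lay between 269 and 339 CPM. The log2 fold change of Atf4 was −0.87 (−0.93 to −0.82) in OB against control and −0.33 (−0.38 to −0.29) for induction under DNMT1 siRNA. With DNMT1 siRNA it was 0.27 (0.23 to 0.32) in untreated and 0.81 (0.75 to 0.87) in induced cells. Atf5 (ENSMUSG00000038539, chromosome 7, 44812256 to 44816658, minus strand) encodes a related factor under similar translational control, and had 6965, 7824, 2909 and 3877 counts in control, siDNMT1, OB and the library labelled siDNMT1_OB. Here both induced libraries were low. Atf5 fell by 1.08 (−1.13 to −1.02) with DNMT1 siRNA, and lay at −1.0 (−1.06 to −0.93), just short of the size threshold before rounding, with control siRNA. Under DNMT1 siRNA Atf5 was at 0.25 in untreated and 0.17 in induced cells.

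Ddit3 (ENSMUSG00000025408, chromosome 10, 127290774 to 127296288, plus strand), the gene of the ER stress factor CHOP, had 766 counts in OB, 1247 in the library labelled siDNMT1_OB, 1739 in control and 2268 in siDNMT1. Its order, siDNMT1 highest and OB lowest, was that of Atf4. The log2 fold change was −0.92 with induction under either siRNA (−1.05 to −0.80 with control siRNA, −1.03 to −0.83 with DNMT1 siRNA) and 0.46 in both DNMT1 siRNA pairs. A second Ddit3 entry (ENSMUSG00000116429), whose 105 exonic bases lie inside those of the first, had 0 counts in every library. Trib3 (ENSMUSG00000032715, chromosome 2, 152337422 to 152344032, minus strand) encodes a pseudokinase that binds ATF4 and damps its activity. It was counted 428 times in OB, 913 in the library labelled siDNMT1_OB, 1854 in control and 2714 in siDNMT1, so that both induced libraries lay well below both uninduced ones. Trib3 fell by 1.85 (−2.01 to −1.70) with control siRNA and fell by 1.63 (−1.74 to −1.53) with DNMT1 siRNA. Its log2 fold change with DNMT1 siRNA was 0.63 (0.55 to 0.72) in untreated and 0.85 (0.68 to 1.02) in induced cells. Nupr1, a small stress-induced nuclear protein, was at −0.97 in OB against control and −0.72 with DNMT1 siRNA, and unlike the other 4 was negative in both DNMT1 siRNA pairs (−0.37 uninduced and −0.11 induced, the latter with an interval of −0.27 to 0.04).

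Among the stress effectors and secreted or surface targets, Chac1 and Vldlr passed the size threshold. Chac1 (ENSMUSG00000027313, chromosome 2, 119351229 to 119354381, plus strand), an enzyme that degrades glutathione, was counted 258 times in OB, 656 in the library labelled siDNMT1_OB, 1056 in control and 1230 in siDNMT1. OB was lowest by far, with the library labelled siDNMT1_OB between it and the untreated libraries. Chac1 fell by 1.76 (−1.97 to −1.57) in OB against control and had a log2 fold change of −0.97 (−1.11 to −0.83) with DNMT1 siRNA, just short of the threshold. It was higher by 1.10 (0.89 to 1.32) in the induced pair, 2.14-fold, and at 0.30 (0.18 to 0.42) in the uninduced pair, and the 2 effects differed by 0.80 (0.56 to 1.04). Vldlr (ENSMUSG00000024924, chromosome 19, 27216484 to 27254231, plus strand), a lipoprotein receptor, had 1948, 2603, 942 and 960 counts in control, siDNMT1, OB and the library labelled siDNMT1_OB. Scaled for depth, Vldlr stood at 41.7 CPM in OB and 35.9 in the library labelled siDNMT1_OB. In control it was at 71.8 CPM and in siDNMT1 at 102. Vldlr fell by 1.5 (−1.61 to −1.39) with DNMT1 siRNA and had −0.78 (−0.90 to −0.67) with control siRNA, and its DNMT1 siRNA effects were 0.50 (0.42 to 0.59) in untreated and −0.22 (−0.35 to −0.08) in induced cells.

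Sesn2, whose product senses leucine and restrains mTORC1, was at 0.01 (−0.09 to 0.10) in OB against control, and so did not share the low OB level of Atf4. In the uninduced pair it was at 0.64 (0.56 to 0.72) and in the induced pair at 0.22. Eif4ebp1, which encodes a repressor of cap-dependent translation, was at −0.85 in OB against control, −0.10 in the uninduced pair and 0.39 in the induced pair. Stc2, the gene of a secreted stanniocalcin, did not pass the filter, with a count of 1 in OB, 0 in the library labelled siDNMT1_OB, 9 in control and 18 in siDNMT1. Its ratio of siDNMT1 to control was 2.12 (0.903 to 5.35) and of control to OB 7.5 (1.04 to 329). In the library labelled siDNMT1_OB it was at least 6.27-fold lower than in siDNMT1, against a floor of 3 counts per library, and the counting interval of that ratio reached down to 4.59.

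Of the 9 amino acid synthesis genes 8 passed the filter. All 8 were negative with induction under control siRNA (against 49.3% of all genes tested) and under DNMT1 siRNA (against 49.9%). All 8 were positive in the induced pair, between 0.14 and 0.76, against 52.2% of all genes. Asns (ENSMUSG00000029752, chromosome 6, 7675169 to 7693254, minus strand), asparagine synthetase and a classical ATF4 target, had 4994, 5566, 1872 and 3112 counts in control, siDNMT1, OB and the library labelled siDNMT1_OB. Asns fell by 1.15 (−1.23 to −1.08) in OB against control and was at −0.90 (−0.97 to −0.84) with DNMT1 siRNA, at 0.24 in the uninduced pair and at 0.49 in the induced pair. Serine is made from a glycolytic intermediate by Phgdh, Psat1 and Psph in turn. Psat1 (ENSMUSG00000024640, chromosome 19, 15904678 to 15947337, minus strand) was counted 5219 times in OB, 8165 in the library labelled siDNMT1_OB, 16213 in control and 14434 in siDNMT1. It fell by 1.37 (−1.42 to −1.33) with control siRNA and was at −0.88 (−0.92 to −0.85) with DNMT1 siRNA. Phgdh, the first step, was at −0.73 with control siRNA but at −0.17 (−0.22 to −0.12) with DNMT1 siRNA, and Psph, the last, at −0.88 and −0.61. Psph shares 10.4% of its exonic bases with Cct6a on the other strand, and Atf5, Ddit3, Shmt2 and Cars share between 1.03% and 4.11% with a gene on the other strand. Whether reads were assigned by strand is not given in the sources used here, so their counts can include reads of the other gene. Aars shares 14.3% of its exonic bases with Exosc6 on the same strand, which had 0 counts in every library.

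The remaining synthesis genes serve cysteine, proline and alanine. Cth (ENSMUSG00000028179, chromosome 3, 157894248 to 157925077, minus strand), which releases cysteine from cystathionine, had 112 counts in OB, 226 in the library labelled siDNMT1_OB, 416 in control and 483 in siDNMT1. Both induced libraries were low. Cth fell by 1.62 (−1.95 to −1.33) with control siRNA and fell by 1.15 (−1.39 to −0.93) with DNMT1 siRNA, on counts that were the lowest of the 34 genes in control, OB and the library labelled siDNMT1_OB. In the induced pair it was at 0.76 (0.44 to 1.11) and in the uninduced pair at 0.30 (0.11 to 0.49). Cbs, which makes the cystathionine, did not pass the filter, with 5, 1, 8 and 1 counts in control, siDNMT1, OB and the library labelled siDNMT1_OB. The ratio of OB to control was 1.92 (0.554 to 7.46), and no difference was detectable at this depth. The ratio of OB to the library labelled siDNMT1_OB was 9.47 (1.27 to 420). Pycr1, which completes proline synthesis, was at 0.85 (0.74 to 0.97) in the uninduced pair, the value nearest to the size threshold there, and at 0.29 in the induced pair. With induction Pycr1 was at −0.29 under control siRNA and −0.85 under DNMT1 siRNA. Aldh18a1, the first proline enzyme, was at −0.61 and −0.51 with induction, and Gpt2, a mitochondrial alanine transaminase, at −0.66 and −0.83.

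The 3 mitochondrial one-carbon enzymes carry serine carbon into folate. Shmt2 (ENSMUSG00000025403, chromosome 10, 127517123 to 127522444, minus strand) was counted 2544 times in OB, 4209 in the library labelled siDNMT1_OB, 8054 in control and 7727 in siDNMT1. The untreated libraries were alike, at a log2 fold change of 0.02 (−0.02 to 0.07), and both induced libraries were lower. Shmt2 fell by 1.40 (−1.47 to −1.34) with control siRNA and was at −0.94 (−0.99 to −0.88) with DNMT1 siRNA, and in the induced pair it was at 0.48 (0.41 to 0.56). Mthfd2, the next step, was at −0.82 and −0.47 with induction under control and DNMT1 siRNA. Aldh1l2, which ends the mitochondrial branch, was at −0.42 and −0.53, though 14.1% of its exonic bases overlap D10Wsu102e on the other strand.

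The 6 amino acid transporters spanned log2 fold changes from −1.54 to 0.47 in OB against control, so that some were low after induction and others were not. Slc7a5 (ENSMUSG00000040010, chromosome 8, 121881150 to 121907694, minus strand), the importer of leucine and other large neutral amino acids, was counted 1817 times in OB, 3625 in the library labelled siDNMT1_OB, 5763 in control and 7372 in siDNMT1. Slc7a5 fell by 1.40 (−1.48 to −1.33) with control siRNA and fell by 1.09 (−1.14 to −1.03) with DNMT1 siRNA. It was at 0.44 in the uninduced pair and 0.75 in the induced pair, so siDNMT1 was highest and OB lowest. Slc3a2, the heavy chain that carries Slc7a5 to the membrane, had 4906 counts in OB, 6920 in the library labelled siDNMT1_OB, 5904 in control and 7250 in siDNMT1, and log2 fold changes of −0.00 (−0.06 to 0.05) and −0.13 with induction. The mRNAs of the subunits of this transporter thus differed in their change with induction. The heavy chain is shared with other light chains, and whether this had a part was not tested.

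Slc7a1 (ENSMUSG00000041313, chromosome 5, 148327410 to 148399904, minus strand), which imports arginine and lysine, was counted 1142 times in OB, 2330 in the library labelled siDNMT1_OB, 3976 in control and 3096 in siDNMT1. Slc7a1 fell by 1.54 (−1.63 to −1.44) with control siRNA and was at −0.47 (−0.55 to −0.39) with DNMT1 siRNA. Its DNMT1 siRNA effect was −0.28 (−0.35 to −0.21) in untreated and 0.79 (0.68 to 0.89) in induced cells, a difference of 1.06 (0.94 to 1.19). The other carriers of small neutral amino acids stayed within 1.5-fold in all 4 comparisons. Slc1a5, the glutamine carrier, was the 1 gene of the 34 that was positive with induction under both siRNAs, at 0.47 (0.29 to 0.66) and 0.47 (0.30 to 0.65). Slc38a2, a sodium-coupled carrier of alanine and glutamine, was at 0.13 and −0.14, and Slc1a4, a carrier of alanine and serine, at −0.44 and −0.10.

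Cytosolic tRNA synthetases charge tRNAs with their amino acids. All 8 were negative with induction under control siRNA, between −0.53 and −1.28, against 49.3% of all genes tested. Under DNMT1 siRNA all 8 were negative too, between −0.49 and −0.72, against 49.9%. All 8 were positive in the induced pair, between 0.21 and 0.49, against 52.2% of all genes. In the uninduced pair they lay between −0.07 and 0.18. Cars (ENSMUSG00000010755, chromosome 7, 143557230 to 143600090, minus strand; cysteine) had 3721, 3351, 1277 and 2130 counts in control, siDNMT1, OB and the library labelled siDNMT1_OB, and fell by 1.28 (−1.37 to −1.19) in OB against control. Iars (ENSMUSG00000037851, chromosome 13, 49682100 to 49734267, plus strand; isoleucine) had 7345 counts in both untreated libraries, 2931 in OB and 4738 in the library labelled siDNMT1_OB, and fell by 1.06 (−1.13 to −1.0) in the same comparison. Tars (ENSMUSG00000022241, chromosome 15, 11382301 to 11399665, minus strand; threonine) had 2505 counts in OB, 3964 in the library labelled siDNMT1_OB, 6029 in control and 5660 in siDNMT1, and a log2 fold change of −1.0 (−1.07 to −0.94), at the threshold. In each of these genes OB was lowest and the library labelled siDNMT1_OB lay between it and the untreated libraries. Aars, Gars, Nars, Sars and Wars lay between −0.53 and −0.90 in OB against control.

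Genes with the CARE element before the start site and genes without it did not fall into separate ranges. For the 8 with the element the median log2 fold change was −0.94 in OB against control, from −1.76 to −0.29, with 3 of them lower by the size rule (37.5%, against 7.1% of all genes tested). The 18 that passed the filter and had a promoter sequence with no match had a median of −0.85, from −1.85 to 0.13, with 5 lower (27.8%). With induction under DNMT1 siRNA the medians stood further apart, at −0.78 with the element and −0.50 without a match. The ranges there were −1.50 to −0.49 and −1.63 to −0.10. In the induced pair the medians were 0.39 and 0.34.

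Genes of neighbouring pathways were set beside the 34. They were listed from general knowledge of their roles, with earlier results of these data known. Of 17 other ATF4 targets and partners that passed the filter, 3 were lower in OB than in control by the size rule (17.6%, against 7.1% of all genes tested) and 2 were higher (11.8%, against 10.6%), and the median was −0.06. The lower genes were Slc7a11 (−1.99), the cystine importer, Atf3 (−1.54) and Ero1l (−1.03), and the higher genes Slc7a3 (1.49) and Ddit4 (1.02). Atf3 was the 1 gene of this list at least 2-fold higher in the induced pair (5.88%, against 2.36% of all genes), at 1.58, on 68 counts against 18. All 12 other cytosolic tRNA synthetases that passed were negative in OB against control, against 49.3% of all genes tested. Their median was −0.62, with Vars (−1.30) and Mars (−1.05) past the threshold (16.7%, against 7.1% of all genes). Mars shares 68 exonic bases with Ddit3 on the other strand.

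In OB against control none of 17 mitochondrial tRNA synthetases was past the threshold. The same held for 21 genes of the ER chaperone arm of the unfolded protein response. It also held for 12 genes for eIF2α kinases, phosphatase subunits and eIF2B. Over all genes tested 7.1% were lower and 10.6% higher. The medians of these lists were −0.12, −0.31 and −0.31, in that order. Isozymes and neighbouring enzymes of the same metabolic pathways went both ways, with 5 of 20 lower (25%, against 7.1% of all genes) and 3 higher (15%, against 10.6%). Mthfd1l (−2.00), Bcat1 (−1.48), Ahcy (−1.44), Ass1 (−1.27) and Shmt1 (−1.04) were lower, whereas Glul, glutamine synthetase, was higher by 3.34, with 6226 counts in OB against 737 in control. Of 8 mitochondrial proteases and chaperones, Hspd1 (−1.15) was past the threshold (12.5%, against 7.1% of all genes lower), and the median was −0.42. In the induced pair 85.7% of the ER chaperone genes were positive, 83.3% of the other cytosolic tRNA synthetases and 76.5% of the other ATF4 targets. The other related lists lay between 52.9% and 66.7%, beside 52.2% of all genes tested. In the uninduced pair these 3 shares were 42.9%, 33.3% and 94.1% (16 of 17 genes), beside 49.7%.

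**Figure D5:**
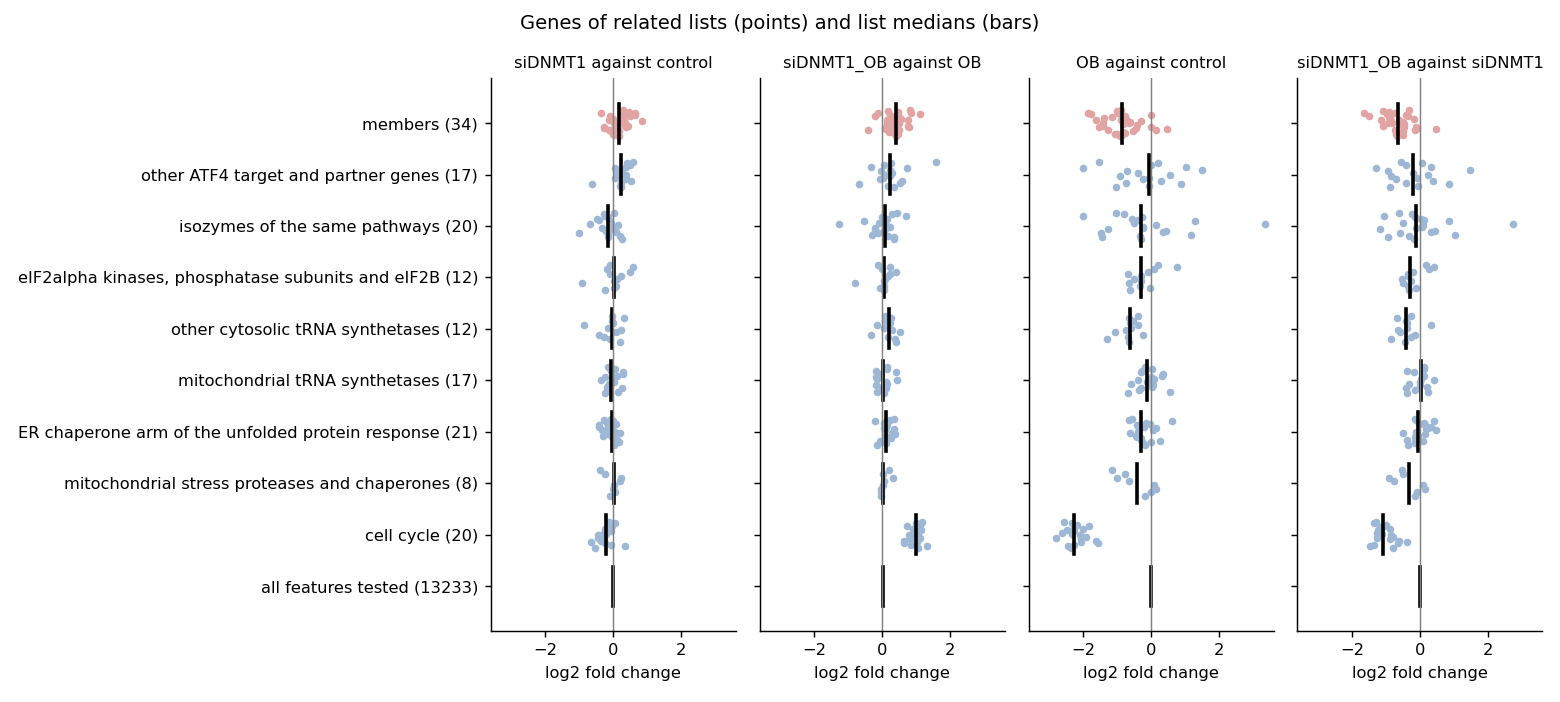
Log2 fold change of every gene that passed the filter in the 34-gene set (red points), in related gene lists and in the cell cycle list (blue points) in the 4 comparisons; black bars are list medians, the last row gives the median of all 13233 genes, and numbers in brackets are genes. In OB against control the bars lie at −0.86 for the 34 genes, −0.62 for the other cytosolic tRNA synthetases, −0.06 for the other ATF4 targets and −2.26 for the cell cycle list.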

How the data were processed

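Poly(A) RNA of C3H10T1/2 cells was sequenced from both ends after TruSeq library preparation, with 1 library in each of 4 groups taken from the sample titles. Per the submitters' processing notes and the study's methods, reads were trimmed (Trimmomatic), aligned to mm10 (HISAT2) and counted per gene (featureCounts). Tool versions, strand use and the treatment of multi-mapping reads are not given in the sources used here. The authors deposited raw counts per gene, in whole numbers without normalization. Every row had a gene name. Coordinates are those of the table; 98.3% of the 54409 genes shared with a GENCODE annotation of GRCm38 had the same position.

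The filter kept genes whose mean CPM was 1 or more, edgeR 4.0.16 under R 4.3.3 gave TMM factors that lay between 0.991 and 1.014, and log2 fold changes came from scaled CPM with a prior count of 2. Intervals are exact conditional binomial 95% intervals of the ratio of 2 counts (scipy 1.17.1), or a normal interval for the difference of effects; reads had no molecular identifiers, so they cover counting error only. Each group had 1 library, so no comparison in the report has a p-value; p-values enter only with the additive fit named below, which assumes that both effects add up. Scripts were tested on simulated data.

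The members and lists were chosen with earlier results of these data known. Counts in all libraries are given for Atf4, Ddit3, Asns and each gene past the size threshold in any comparison. The alternatives were other scalings (total count, upper quartile, DESeq2 1.42.0 size factors, TMM over all genes), filters, prior counts, a 1.5-fold threshold, an additive edgeR fit and leaving out overlapping genes. Only RNA counts were analysed here. 1 promoter window is not reported here.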

Additional observations from a re-analysis of the deposited data

Results flagged for a closer look

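In 5 genes the siDNMT1 effect had opposite signs in untreated and in induced cells, with both counting intervals away from 0 (14.7% of the 34, against 12.6% of all genes tested). The log2 fold changes without induction (siDNMT1 against control) and with it (the library labelled siDNMT1_OB against OB) were −0.28 and 0.79 for Slc7a1, −0.07 and 0.49 for Cars, −0.10 and 0.39 for Eif4ebp1, −0.09 and 0.40 for Psat1, and 0.50 and −0.22 for Vldlr. In Slc38a2 the effect of induction had opposite signs, at 0.13 with control siRNA and −0.14 with DNMT1 siRNA (1 gene, 2.94%, against 3.85%). With 1 library per group these differences were not tested.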

How the results depend on the processing

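With 1 library per group, no library could be left out and nothing here measures the spread between dishes. No analysis paired by replicate was possible, because each group held 1 library and the labels give no replicate numbers. Only the additive fit below took both factors together. Of 1360 values of single genes under 8 alternatives of scaling, filter and prior count, 1356 stayed inside the counting interval of the reported value and 4 did not, and no value past the size threshold changed sign. In 5 a call changed, all in OB against control: Tars was no longer lower under total count and upper quartile scaling, Atf5 was lower under DESeq2 size factors, and Atf5 and Nupr1 were lower under TMM over all genes. Of 100 counts and medians 11 moved, none of them to the other direction. Under the other scalings 10 to 13 of the 34 genes were lower in OB against control (29.4% to 38.2%). Over all genes tested that share was 6.51% to 7.62%. At 1.5-fold the numbers of genes past the threshold in either direction became 3 in siDNMT1 against control (8.82%, against 10.9% of all genes tested), 6 in the library labelled siDNMT1_OB against OB (17.6%, against 11.5%), 26 in OB against control (76.5%, against 34.4%), 18 in the library labelled siDNMT1_OB against siDNMT1 (52.9%, against 23%) and 3 in the difference of siDNMT1 effects (8.82%, against 17.5%). With no filter, which adds Stc2 and Cbs, they became 1, 2, 12, 6 and 2 of 36, that is 2.78%, 5.56%, 33.3%, 16.7% and 5.56%, against 9.49%, 12%, 22.4%, 14.1% and 19.7% of the 27380 genes with any count. An additive edgeR quasi-likelihood fit, with 1 residual degree of freedom and the assumption that both effects are the same in both states, called 24 genes lower with induction at an adjusted p under 0.05 (70.6%, against 9.09% of all genes tested, of which 1203 were lower and 1583 higher). With DNMT1 siRNA it called 0 of the 34 and 0 of all 13233 genes, where 10 of the 34 (29.4%) and 1148 of all genes (8.68%) had an unadjusted p under 0.05. Leaving out the 6 genes that share exonic bases with another gene that had counts (Aars stayed in, since Exosc6 had none), and TMM over all genes, were chosen after seeing the data. The first left 9 of 28 genes lower in OB against control (32.1%, against 7.1% of all genes tested), 4 lower in the library labelled siDNMT1_OB against siDNMT1 (14.3%, against 2.71%) and Chac1 higher in that library against OB (3.57%, against 2.36%).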
